A study of Mus musculus with 6 samples.

Results

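The cytosolic ribosomal protein genes were followed through the cell classes of the mouse testis and compared between control and nicotine-exposed mice. The 87 members, of 32285 features in the deposited gene list, are the features whose symbol begins with Rpl or Rps and a digit or with Rplp, together with Rpsa and Fau. Of these, 52 symbols belong to the large subunit series and 34 to the small subunit series, and Fau encodes a fusion that contains a small subunit protein. The 5 pseudogene symbols of these families and the 10 symbols of the Rps6k kinases, which are not ribosomal proteins, were left out. The rule also takes in Rps19bp1, which encodes a binding partner of the Rps19 protein, and Rpl7l1, a relative of Rpl7 associated with ribosome assembly. Rps4l, a relative of Rps4x, was not analysed here.

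The testes came from 6 male C57BL/6J mice aged 11 weeks. The 3 control mice were fed normally and drank plain water, and the 3 nicotine mice drank water with nicotine at 200 µg/mL for 8 weeks, beginning at 3 weeks of age. Both testes of a mouse were dissociated together and made into 1 library of droplet single-cell RNA sequencing, which counts unique molecular identifiers (UMIs), each standing for a captured transcript end. The labels give no transgene, sorting step or collection batch, so the comparison rests on 3 mice against 3, for which the smallest exact permutation p is 0.1.

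Each cytosolic ribosome is built from a set of ribosomal proteins, most of them encoded by a gene of their own, and its messages are among the most abundant in growing cells. In male germ cells the X chromosome is silenced at the pachytene stage of meiosis (meiotic sex chromosome inactivation) and stays largely repressed in spermatids, so the ribosomal protein genes on the X cannot supply their message there. Several of them have autosomal relatives, such as Rpl10l and Rpl39l, that are expressed in the testis. Loss of Rpl10l in mice is known to arrest meiosis, and Rpl39l is known to contribute to sperm formation.

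The libraries held 67853893 to 88329607 UMIs, and 61945 cells were kept after filtering. Clustering gave 38 clusters, which were named from marker genes with the suffix "-like", and any pair of libraries shared 25 to 54 barcodes. The members and their pseudogenes were left out of the genes used for clustering. Germ cell clusters are called "low-UMI" where their median UMI number was below 2467, the median of the kept cells. The 15 classes described here comprise 11 of germ cells, Sertoli-like, Leydig-like, stromal-like and macrophage-like cells. Cluster 18, with 642 cells, passed all 12 of its leptotene/zygotene markers but had Stra8, from the spermatogonium list, among its leading genes and is given by its number. No cluster was named for spermatogonia, myoid cells or endothelium. Levels are in CPM (the usual scaling of counts by the total UMIs) of the summed cells of a mouse and class, as mean ± SD over the 6 mice. UMIs count transcript ends, so levels were not divided by length. Classes were made from the same cells, so their levels are a description without a test, and for genes with many pseudogene copies a comparison between genes is less certain than that of 1 gene between classes.

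Of the 87 members, 4 lie on the X chromosome (Rpl10, Rpl36a, Rpl39 and Rps4x) and 83 on autosomes, per GENCODE vM21 on GRCm38. Rpl39 (chrX:37082520-37085402, minus strand, 3 exons) and its autosomal relative Rpl39l (chr16:10170226-10174911, plus strand, 3 exons) encode a very short, basic protein near the ribosome's peptide exit tunnel. Their coding sequences are shown because Rpl39l had the highest level of the testis paralogs set against a somatic form. Both are 156 bases long and 85.3% identical, and capitals mark the 23 positions at which they differ, 16 of them at the wobble position of a codon and 7 at other positions.
Rpl39: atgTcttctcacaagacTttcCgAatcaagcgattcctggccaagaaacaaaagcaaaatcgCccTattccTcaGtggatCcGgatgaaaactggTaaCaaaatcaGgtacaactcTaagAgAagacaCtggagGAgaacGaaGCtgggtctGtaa
Rpl39l: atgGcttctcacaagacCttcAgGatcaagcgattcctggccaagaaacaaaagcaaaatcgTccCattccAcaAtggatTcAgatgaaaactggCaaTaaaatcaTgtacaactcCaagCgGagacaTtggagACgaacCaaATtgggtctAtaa

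Rpl10 (chrX:74270812-74273135, 6 exons), a large subunit protein needed for subunit joining, has the intronless relative Rpl10l (chr12:66283379-66284401, 1 exon). Their coding sequences are 645 bases each and 84.8% identical. Rpl36a (chrX:134585654-134588062, 5 exons) has the intronless relative Rpl36al (chr12:69182731-69184083, 1 exon), at 87.9% identity over 321 coding bases. In the last 300 bases of the transcripts, where the UMIs lie, the longest exact run shared was 7 bases for the Rpl39 pair, 9 for the Rpl10 pair and 24 for the Rpl36a pair.

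Rpl39 was highest in somatic cells and Rpl39l in germ cells. Rpl39 stood at 973, 572 and 987 CPM in Leydig-like cells of the control mice and at 755, 620 and 932 CPM in those of the nicotine mice. In pachytene spermatocyte-like cells it was 2.10 ± 1.38 CPM, in diplotene/dividing spermatocyte-like cells 0.81 ± 0.59 CPM and in round spermatid-like cells 0.71 ± 0.32 CPM. Every mouse thus had a Rpl39 level in Leydig-like cells above that of any mouse in these germ cell classes.

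Rpl39l showed the opposite order between Leydig-like cells and these germ cell classes. In diplotene/dividing spermatocyte-like cells it was at 2096, 1681 and 2026 CPM in the control mice and at 2178, 1924 and 2056 CPM in the nicotine mice. Round spermatid-like cells had 1608, 1322 and 1549 CPM in control mice and 1598, 1421 and 1483 CPM in nicotine mice. Control replicate 2 had the lowest Rpl39l level in both classes. Among the cells with the later spermatid markers Tnp1 and Prm1, the elongating spermatid-like class, the mean was 835 ± 84.6 CPM, and in pachytene spermatocyte-like cells 498 ± 73.1 CPM. Leydig-like cells had the lowest mean, 258 ± 53.2 CPM. Macrophage-like cells had a mean of 737 CPM, above that of pachytene spermatocyte-like cells. The means of the round spermatid-like class, the low-UMI round spermatid-like class (1488 ± 143 CPM) and the Sertoli-like class (1465 ± 126 CPM) lay within their spread of each other.

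As a share of the UMIs of the pair, Rpl39l made up 97.3 ± 1.11% in cluster 18, 99.6 ± 0.293% in pachytene spermatocyte-like, 99.96 ± 0.028% in diplotene/dividing spermatocyte-like and 99.8 ± 0.087% in elongating spermatid-like cells. Its share was 24.6 ± 4.63% in Leydig-like, 51.2 ± 9.03% in stromal-like and 53.8 ± 7.14% in macrophage-like cells. The exchange between the 2 genes was therefore already present in cluster 18, the class with leptotene/zygotene markers, where Rpl39 was at 32.4 ± 14.04 CPM against 1174 ± 102 CPM for Rpl39l.

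Rpl10 was likewise highest in somatic cells. Rpl10l was at lower levels than Rpl39l and, as with Rpl39l, not higher in every germ cell class than in somatic cells. Rpl10 was at 1008, 1486 and 1200.3 CPM in Leydig-like cells of control mice and at 1134, 1275 and 1134.5 CPM in those of nicotine mice, against 24.5 ± 9.44 CPM in cluster 18, 7.71 ± 2.55 CPM in pachytene spermatocyte-like and 2.41 ± 0.73 CPM in diplotene/dividing spermatocyte-like cells. Rpl10l was highest in diplotene/dividing spermatocyte-like cells, at 139, 147 and 149 CPM in control mice and 146, 164 and 158 CPM in nicotine mice. Its mean was 126 ± 14.5 CPM in cluster 18, 48.7 ± 7.84 CPM in pachytene spermatocyte-like, 93.8 ± 6.06 CPM in round spermatid-like and 16.9 ± 1.60 CPM in elongating spermatid-like cells. In Leydig-like cells Rpl10l was at 19.9 ± 10.02 CPM and in stromal-like cells at 47.1 ± 21.6 CPM, so elongating spermatid-like cells lay below these means and pachytene spermatocyte-like cells within the spread of the stromal-like level. The low-UMI elongating spermatid-like class did not share the low level, with means of 45.3 CPM in control and 58.0 CPM in nicotine mice. The Rpl10l share of the pair was 83.9 ± 5.10% in cluster 18, 98.4 ± 0.400% in diplotene/dividing spermatocyte-like and 93.6 ± 0.991% in round spermatid-like cells, against 1.67 ± 0.899% in Leydig-like cells. The summed level of Rpl10 and Rpl10l in germ cells thus stayed far under the Rpl10 level of Leydig-like cells, whereas that of Rpl39 and Rpl39l did not.

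Rpl36al, unlike Rpl10l and Rpl39l, had its highest mean in Leydig-like cells and its lowest, 159 ± 17.2 CPM, in elongating spermatid-like cells. It was at 559 ± 92.4 CPM in Leydig-like, 290 ± 34.3 CPM in stromal-like, 370 ± 36.0 CPM in diplotene/dividing spermatocyte-like and 282 ± 22.9 CPM in round spermatid-like cells. Its X-linked relative Rpl36a was at 481 ± 118 CPM in Leydig-like cells and at 0.34 ± 0.41 CPM in diplotene/dividing spermatocyte-like cells, where 2 nicotine libraries held none of its UMIs. The share of Rpl36al in the pair was 54.2 ± 4.58% in Leydig-like and 99.9 ± 0.063% in round spermatid-like cells.

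Rps4x (chrX:102184941-102189394, 7 exons), a small subunit protein for which no autosomal relative was analysed here, was at 1248, 1415 and 1244 CPM in control and 1210.2, 1272 and 1271 CPM in nicotine Leydig-like cells. It was at 5.71 ± 1.27 CPM in cluster 18 and at 0.71 ± 0.29 CPM in round spermatid-like cells. Cluster 18 therefore held Rpl39, Rpl10 and Rpl36a (45.7 ± 22.0 CPM) at higher levels than Rps4x, although Rps4x was not the lowest of the 4 in Leydig-like cells. Nicotine replicate 1 stood apart in pachytene spermatocyte-like cells, with Rps4x at 11.2 CPM against 0.59 to 2.16 CPM in the other mice.

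**Figure D1:**
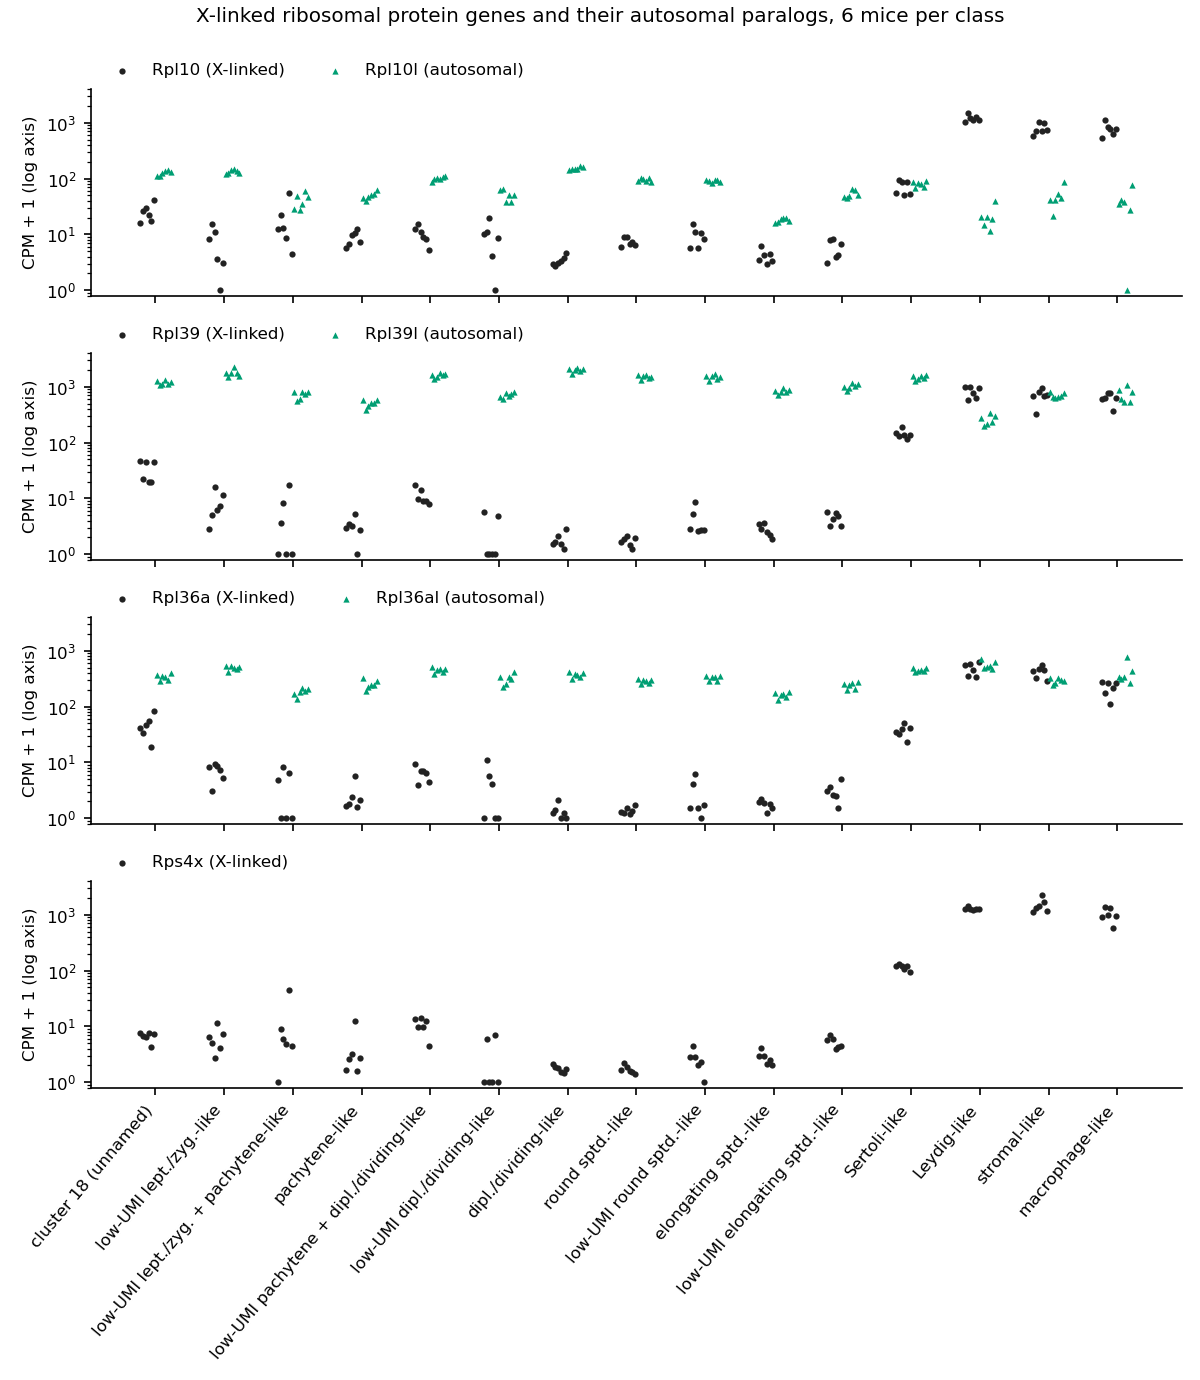
Levels of the X-linked ribosomal protein genes and their autosomal relatives, as CPM + 1 on a log axis, for each cell class; each point is 1 of the 6 mice. Rpl10, Rpl39, Rpl36a and Rps4x are high in Leydig-like, stromal-like and macrophage-like cells and near the bottom of the axis in spermatids, whereas Rpl10l and Rpl39l are lowest in Leydig-like cells or elongating spermatid-like cells and Rpl36al runs from 159 CPM in elongating spermatid-like to 559 CPM in Leydig-like cells.

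The 4 X-linked members together made up 4.24 ± 0.201% of the member UMIs in Leydig-like cells and 4.30 ± 0.423% in stromal-like cells. This share was 0.165 ± 0.050% in cluster 18, 0.0825 ± 0.045% in pachytene spermatocyte-like, 0.00891 ± 0.0020% in diplotene/dividing spermatocyte-like and 0.0204 ± 0.0051% in round spermatid-like cells. Other X-linked and autosomal genes were set beside them, taken at 50 CPM or more in Leydig-like cells, a choice that by itself draws the difference from Leydig-like cells below 0 and leaves out genes expressed in germ cells alone. Over the 92 other X-linked genes so chosen, the median difference from Leydig-like cells on the log2(CPM + 1) scale was -4.20 in cluster 18, -5.87 in pachytene spermatocyte-like, -5.78 in diplotene/dividing spermatocyte-like and -5.43 in round spermatid-like cells. The medians of the 4 X-linked members were -5.08, -7.78, -8.65 and -8.66 in these classes. The level at which a gene starts limits how far it can fall on this scale. The X-linked members started at 481 CPM (Rpl36a) or more in Leydig-like cells, against 50 CPM or more for the other genes. These medians therefore cannot show whether the members fell further than other X-linked genes. For the 79 autosomal members the medians were -0.48, -2.26, -0.90 and -1.13, against -0.23, -0.90, -0.96 and -1.53 for the 3247 other autosomal genes that passed the same level.

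The Sertoli-like class, a somatic cell type by its name, had values between those of germ and Leydig-like cells. Its X-linked share of member UMIs was 0.570 ± 0.070%, its Rpl10l share of the pair 53.6 ± 9.67% and its Rpl39l share 91.1 ± 1.63%. Its cells were shallow, with median UMI numbers of 866 to 1062 per mouse. The 12 Sertoli markers made up 0.777 ± 0.076% of its UMIs, while the 12 pachytene spermatocyte markers made up 1.10 ± 0.062% and the 12 elongating spermatid markers 2.03 ± 0.560%, all with UMIs. In Leydig-like cells the same elongating spermatid markers made up 0.486 ± 0.158%. Per cell, Rpl39l UMIs were close in the 4 somatic classes (1.56 ± 0.168 in Sertoli-like, 1.78 ± 0.367 in Leydig-like, 1.26 ± 0.202 in stromal-like and 1.52 ± 0.273 in macrophage-like cells), and the spermatid gene Prm2 also had 5.62, 9.93, 4.28 and 4.93 UMIs per cell there. The part of RNA from germ cells in the somatic levels of Rpl39l and Rpl10l was not tested. Rpl10 differed between these classes, with 8.34 ± 1.27 UMIs per Leydig-like cell and 0.075 ± 0.022 per Sertoli-like cell.

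Across the 14 classes with a name (without cluster 18), the genes with the pattern most like that of Rpl10l, by Pearson correlation of log2(CPM + 1) over 16315 genes, were Fbp1 (r = 0.986), B230118H07Rik (0.980), Morf4l1 (0.979), 1700018L02Rik (0.978) and Ruvbl2 (0.977). For Rpl39l they were Pdcl2 (0.985), Lypd9 (0.981), Fam20a (0.970), Spata4 (0.968) and Akirin2 (0.966). Rpl10l and Rpl39l correlated with each other at r = 0.835. These correlations are a description, since the classes share libraries and differ in depth.

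Rpl3l, the striated muscle relative of Rpl3 (73.3% identity of the coding sequences), was close to absent. It had 114 UMIs among 419076893 in the kept cells. Its highest level was 5.67 CPM in the low-UMI leptotene/zygotene and pachytene spermatocyte-like class, followed by 2.21 ± 0.65 CPM in pachytene spermatocyte-like and 1.82 ± 0.89 CPM in cluster 18. Leydig-like cells held no UMI of it, which allows a level of up to 1.202 CPM over the 6 mice, for counting error alone. Rpl3 was at 76.0 ± 5.32 CPM in pachytene spermatocyte-like cells, where Rpl3l made up 2.85 ± 0.887% of the pair, and at 620.0 ± 87.5 CPM in Leydig-like cells.

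Taken over all members, ribosomal protein messages held the smallest share of UMIs, among the 15 classes, in pachytene spermatocyte-like cells. This share was 1.77 ± 0.197% there, against 6.47 ± 0.544% in cluster 18, 4.803 ± 0.366% in diplotene/dividing spermatocyte-like, 4.05 ± 0.256% in round spermatid-like and 3.94 ± 0.236% in elongating spermatid-like cells. Somatic cells had 8.91 ± 0.573% (Leydig-like), 7.88 ± 0.975% (stromal-like), 8.29 ± 1.00% (macrophage-like) and 6.39 ± 0.345% (Sertoli-like). The low share in pachytene was shared by the low-UMI leptotene/zygotene and pachytene spermatocyte-like class (2.40 ± 0.330%) and the low-UMI diplotene/dividing spermatocyte-like class (2.33 ± 0.164%), but not by the low-UMI class with pachytene and diplotene/dividing markers (4.98 ± 0.314%). Low shares were not confined to spermatocyte names. Within the low-UMI round spermatid-like class, cluster 4 had 2.81% and cluster 14 4.64%. The unnamed cluster 5, with 4573 cells, had 2.90%. Control and nicotine mice overlapped in this share in each of the 15 classes. In pachytene spermatocyte-like cells it was 2.01, 1.49 and 1.69% in control mice and 1.78, 1.67 and 1.97% in nicotine mice. In Leydig-like cells it was 9.75, 8.61 and 9.25% against 8.55, 8.17 and 9.14%. Control replicate 2 was the lowest control mouse in 15 of 15 classes and nicotine replicate 2 the lowest nicotine mouse in 12 of 15.

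**Figure D2:**
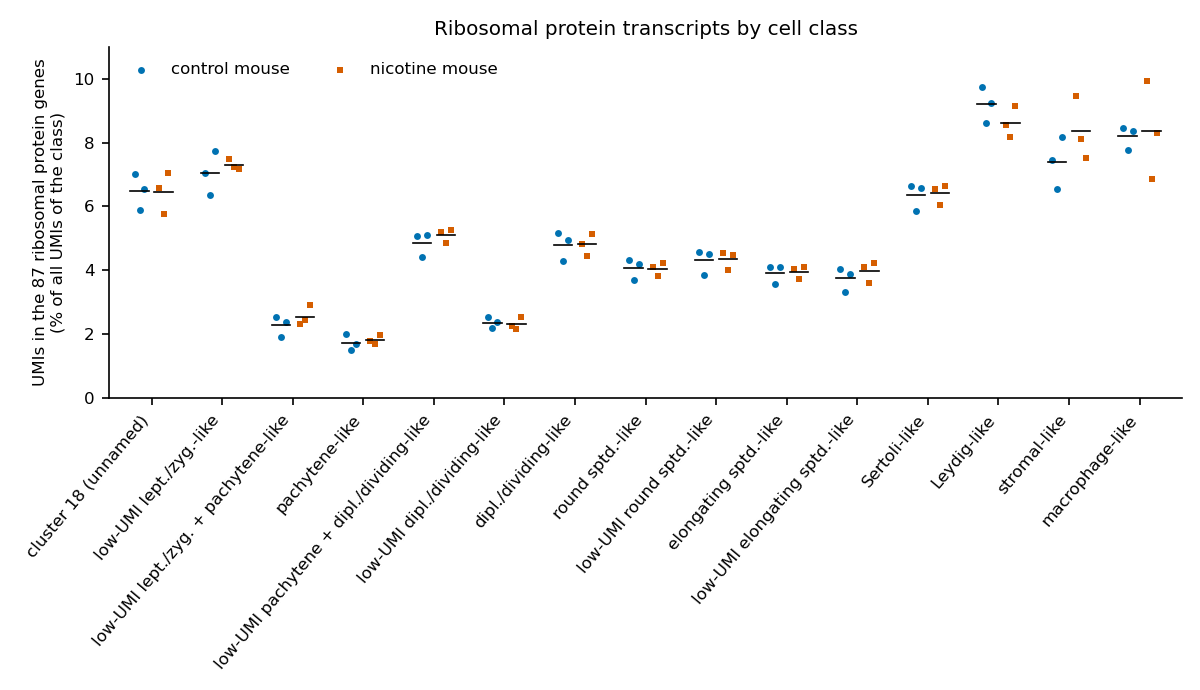
Share of all UMIs that fell in the 87 ribosomal protein genes, in percent, for each class; points are mice and bars the means of 3 control and 3 nicotine mice. The share is lowest in pachytene spermatocyte-like cells (1.77% over 6 mice) and highest in Leydig-like cells (8.91%), and the groups overlap in every class.

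Members differed in how far their share of the member UMIs varied from class to class. Over the 85 members that reached 0.1% of the member UMIs in a named class, the range of the log2 share between the 14 named classes had a median of 1.30. The steadiest were Rps15a (0.44), Rps27 (0.48), Rpl28 (0.52), Rpl38 (0.56) and Rps6 (0.60), the last a target of S6 kinases. The 4 X-linked members varied most, Rps4x by 10.25, Rpl36a by 9.57, Rpl39 by 9.09 and Rpl10 by 8.09. Next came Rps19bp1 (4.39), Rpl7l1 (4.37), Rpl14 (4.34) and Rpl10a (4.04), which are autosomal, and then Rpl39l (3.84) and Rpl10l (3.83).

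Rpl14 and Rpl10a, large subunit proteins, were at somatic levels in early meiosis and low in spermatids. Rpl14 was at 782 CPM in Leydig-like cells and 702 CPM in cluster 18, then at 105 CPM in pachytene spermatocyte-like, 70.4 CPM in diplotene/dividing spermatocyte-like and 17.5 CPM in round spermatid-like cells. Rpl10a was at 563, 449, 50.9, 44.7 and 15.6 CPM in the same order of classes. Both stood lowest in round spermatid-like cells and slightly higher in elongating spermatid-like cells, at 25.7 CPM for Rpl14 and 22.5 CPM for Rpl10a. No autosomal relative of either was in the lists used here. Rps3, a small subunit protein at the messenger entry channel that also has repair functions, was at 786 CPM in Leydig-like, 379 CPM in cluster 18 and 29.5 CPM in elongating spermatid-like cells.

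Rps20 took its highest part of the member UMIs in elongating spermatid-like cells. Rps20, a small subunit protein of the head, was at 3160 CPM there against 1383 CPM in low-UMI elongating spermatid-like, 1326 CPM in round spermatid-like and 1240.0 CPM in Leydig-like cells. Its part in the member UMIs was 8.04 ± 0.30% in elongating spermatid-like cells, 3.27 ± 0.07% in round spermatid-like cells and 1.39 ± 0.07% in Leydig-like cells. Rpl41, a very short large subunit peptide, singled out here after its values were seen, was at 2094 CPM against 940.4 CPM in round spermatid-like cells, and its highest part, 8.45%, was in low-UMI elongating spermatid-like cells, beside 5.30% here. Rps14, the most abundant member in the unweighted mean over the 14 named classes with 3.87% of the member UMIs (in total UMIs Rps20 had more, 751716 against 718310), had its highest part in round spermatid-like cells (5.12 ± 0.17%) and its lowest in elongating spermatid-like cells (2.38 ± 0.20%). Rps7, next after Rps20 in that unweighted mean, ranged from 1.53% in Leydig-like cells to 3.50% in the low-UMI leptotene/zygotene and pachytene spermatocyte-like class.

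**Figure D3:**
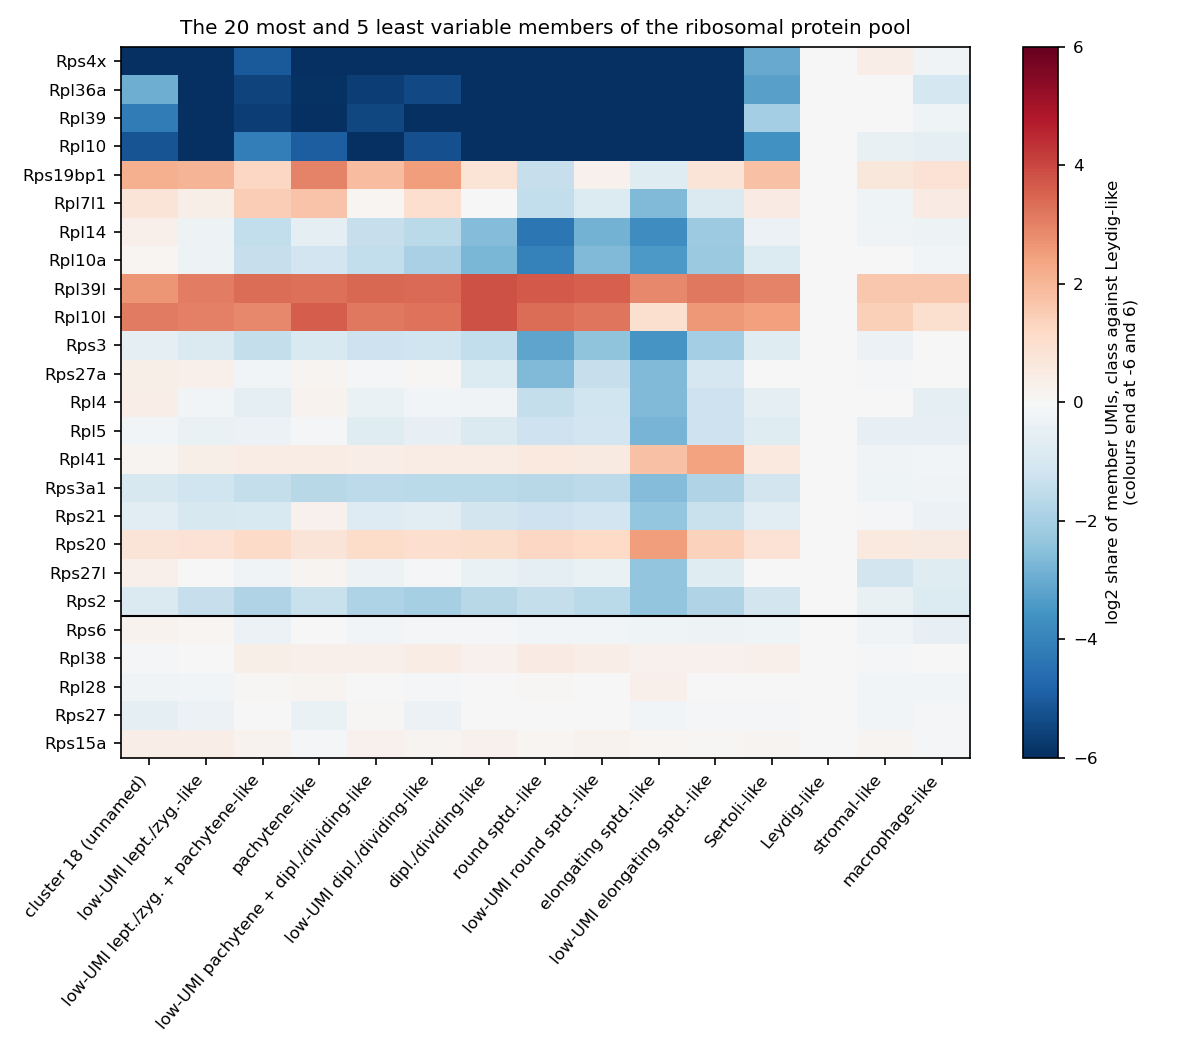
Share of the member UMIs held by each gene in each class relative to Leydig-like cells, on a log2 scale with colours ending at -6 and 6, for the 20 members that varied most and, under the line, the 5 that varied least. Rps4x, Rpl36a, Rpl39 and Rpl10 are low in all germ cell classes and Rpl39l is high there. Rpl10l is high in the germ cell classes other than elongating spermatid-like, where it holds 0.0432% of the member UMIs against 0.0222% in Leydig-like cells. Rpl14, Rpl10a and Rps3 turn low between cluster 18 and the spermatid classes.

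Other paralog pairs, with both genes on autosomes, also changed their balance along the germ cell classes. Rpl22l1, the relative of the RNA-binding large subunit protein Rpl22 (67.5% identity), made up 27.5 ± 1.77% of its pair in cluster 18, 64.5 ± 2.74% in pachytene spermatocyte-like, 79.9 ± 0.684% in diplotene/dividing spermatocyte-like and 75.0 ± 0.670% in round spermatid-like cells. In elongating spermatid-like cells it made up 39.2 ± 1.67%, a value over unlike clusters. Clusters 8, 9 and 0 of this class had 21.6, 22.6 and 26.9%, while clusters 1 and 2 had 55.5 and 54.9%. The low-UMI elongating spermatid-like clusters 10 and 17 had 71.1 and 66.4%, nearer to the round spermatid-like share. Leydig-like cells had 35.6 ± 2.89%. The level of Rpl22l1 itself was 505 ± 58.8 CPM in diplotene/dividing spermatocyte-like and 125 ± 18.04 CPM in elongating spermatid-like cells, while that of Rpl22 was 127 ± 18.9 and 194 ± 21.7 CPM.

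Rps27l, the relative of Rps27 known as a p53 target (62.3% identity), made up 51.3 ± 3.66% of its pair in cluster 18, 29.1 ± 3.16% in round spermatid-like and 11.5 ± 1.37% in elongating spermatid-like cells. Rps27 was at 539 ± 137 CPM in cluster 18, 158 ± 44.2 CPM in pachytene spermatocyte-like and 426 ± 102 CPM in elongating spermatid-like cells, with 181 CPM in cluster 1 and 533 CPM in cluster 8 of the last class. Rps27l was at 558 ± 87.4 CPM in cluster 18 and 53.9 ± 7.66 CPM in elongating spermatid-like cells. Rpl7l1 (54.5% identity with Rpl7) made up 18.2 ± 1.87% of its pair in pachytene spermatocyte-like cells, its highest share, 7.39 ± 0.370% in cluster 18 and 1.57 ± 0.217% in elongating spermatid-like cells. Rpl7 was at 165 ± 10.9 CPM in pachytene spermatocyte-like and 860.3 ± 57.3 CPM in cluster 18.

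**Figure D4:**
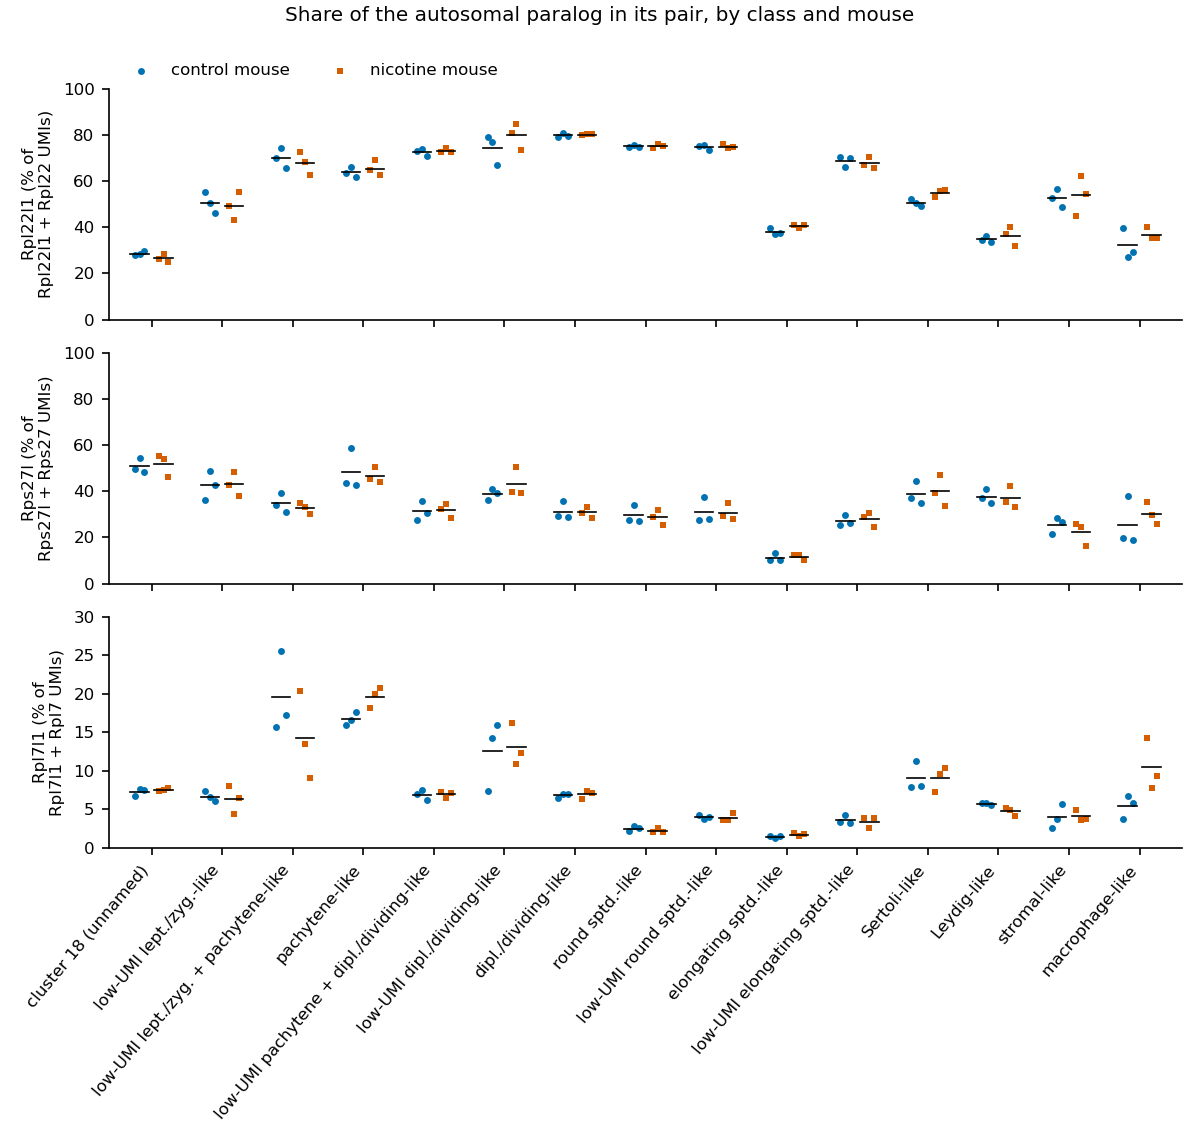
Share of the relative in the summed UMIs of its pair, in percent, for Rpl22l1 with Rpl22, Rps27l with Rps27 and Rpl7l1 with Rpl7, by class; each point is a mouse. Rpl22l1 has its highest shares in diplotene/dividing spermatocyte-like cells (79.9%), Rpl7l1 in pachytene spermatocyte-like cells (18.2%), and Rps27l its lowest in elongating spermatid-like cells (11.5%).

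The acidic stalk proteins Rplp0, Rplp1 and Rplp2, which recruit translation factors to the ribosome, differed among themselves. Rplp0 was at 1488 ± 116 CPM in Leydig-like, 329 ± 31.3 CPM in pachytene spermatocyte-like and 977 ± 61.8 CPM in elongating spermatid-like cells. Rplp1 was at 2447 ± 254, 276 ± 37.8 and 919 ± 71.1 CPM in these classes, and Rplp2 at 1354 ± 179, 218 ± 46.5 and 384 ± 63.5 CPM. Rplp0 exceeded Rplp1 in round spermatid-like cells (956 ± 56.7 against 529.5 ± 58.0 CPM), whereas Rplp1 exceeded Rplp0 in Leydig-like cells.

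The ubiquitin fusion genes encode a ribosomal protein joined to ubiquitin or a ubiquitin-like peptide and had unlike courses. Rps27a was at 1107 ± 54.8 CPM in cluster 18, 272 ± 23.1 CPM in pachytene spermatocyte-like, 86.1 ± 1.81 CPM in round spermatid-like and 84.5 ± 6.97 CPM in elongating spermatid-like cells. Fau was at 724 ± 90.3, 298 ± 37.0, 779 ± 71.95 and 1364 ± 90.5 CPM in these classes. From cluster 18 to elongating spermatid-like cells Rps27a was thus lower and Fau higher, while Fau in round spermatid-like cells lay within its spread of cluster 18.

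Other translation genes had their own distribution over the classes. The 8 elongation factors, which include Eef1a1 and Eef2, held 1.09% of UMIs in Leydig-like, 0.163% in pachytene spermatocyte-like and 0.724% in elongating spermatid-like cells. The 35 initiation factors and poly(A)-binding proteins held 0.692, 0.653 and 1.22%, and the 78 mitochondrial ribosomal proteins 0.653, 0.379 and 0.223%. The 40 genes of ribosome biogenesis, such as Npm1 and Fbl, held 0.427% in cluster 18 and 0.079% in elongating spermatid-like cells. The 9 ribosome-associated and TOP mRNA regulators, such as Rack1 and Larp1, held 0.269% in Leydig-like and 0.163% in pachytene spermatocyte-like cells.

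Nicotine changed no member past the threshold in any class. The sums of each class were compared between 3 and 3 mice by edgeR's quasi-likelihood test in the 14 classes with at least 20 cells in every mouse, macrophage-like cells being left out because nicotine replicate 1 had 6. Between 78 and 86 of the 87 members passed the filter on low counts in a class. Of 1164 tests of members, 0 had an adjusted p of at most 0.05 by edgeR, and DESeq2 also called 0. At an unadjusted p under 0.05 edgeR gave 28, which is 2.41% of the member tests, against 5.57% of the tests of all genes. The share of all genes called by edgeR was itself small: 0% in cluster 18 and in the low-UMI leptotene/zygotene spermatocyte-like, round spermatid-like, low-UMI round spermatid-like, low-UMI elongating spermatid-like and stromal-like classes. It was 0.00699% in elongating spermatid-like, 0.016% in Leydig-like, 0.0176% in low-UMI leptotene/zygotene and pachytene spermatocyte-like, 0.0573% in low-UMI diplotene/dividing spermatocyte-like and 0.143% in pachytene spermatocyte-like cells. In diplotene/dividing spermatocyte-like cells it was 0.171%, in Sertoli-like cells 0.191% and in the low-UMI pachytene and diplotene/dividing spermatocyte-like class 0.544%. On simulated counts with the same design, a 2-fold change was recovered in 91.2% of genes in elongating spermatid-like cells and in 53.3% in Leydig-like cells, and a 1.5-fold change in 60% and 11.7%. The changed genes were drawn at random from all genes that passed the filter. Recovery for the members alone, whose levels differ from those of all genes, was not measured.

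Control and nicotine mice did not overlap in 60 of the 1164 member tests (5.15%), against 11.2% of the tests of all genes. By class this held for 2 of 86 members in cluster 18 (all genes 7.72%), 2 of 82 in pachytene spermatocyte-like cells (all genes 11.0%), 4 of 86 in elongating spermatid-like cells (all genes 15.3%), 8 of 83 in Leydig-like cells (all genes 10.2%) and 6 of 82 in stromal-like cells (all genes 13.2%). Each of these 5 shares was under that of all genes in its class. The highest share, 11.25%, was that of 9 of 80 members in the low-UMI leptotene/zygotene and pachytene spermatocyte-like class, 8 of them higher (all genes 10.6%), followed among the classes not yet given by 7 of 84 in the low-UMI pachytene and diplotene/dividing spermatocyte-like class (all genes 13.6%). In the remaining classes it held for 6 of 78 in low-UMI diplotene/dividing spermatocyte-like cells (all genes 12.8%), 6 of 84 in low-UMI elongating spermatid-like cells (all genes 11.9%), 4 of 83 in diplotene/dividing spermatocyte-like cells (all genes 15.8%) and 3 of 86 in Sertoli-like cells (all genes 13.9%). It held for 1 of 81 in low-UMI leptotene/zygotene spermatocyte-like (all genes 8.05%), 1 of 86 in round spermatid-like (all genes 6.7%) and 1 of 83 in low-UMI round spermatid-like cells (all genes 7.86%). The 8 in Leydig-like cells were lower with nicotine and the 6 in stromal-like cells higher. The median log2 fold change of the members was -0.11 in Leydig-like cells, where 8 of 83 were above 0, and 0.16 in stromal-like cells, where 76 of 82 were, against 0.01 and 0.02 over all genes. In the low-UMI leptotene/zygotene and pachytene spermatocyte-like class it was 0.18, against -0.01 over all genes, and in the other classes between -0.05 and 0.05. These medians depended on single mice. Leaving out control replicate 2 gave 0.067 in stromal-like cells, -0.176 in Leydig-like cells and 0.053 in the low-UMI leptotene/zygotene and pachytene spermatocyte-like class. The stromal-like value became 0.075 once nicotine replicate 1 was dropped and 0.275 once control replicate 3 was, and the Leydig-like value -0.068 once control replicate 1 was. Dropping nicotine replicate 3 gave 0.030 in the low-UMI leptotene/zygotene and pachytene spermatocyte-like class. The stromal-like class also held another mix of clusters in each group: cluster 31, with 9.53% of its UMIs in members, made up 66.3% of its cells in control and 79.1% in nicotine mice, the rest being cluster 30, with 3.57%. The part of this mix in the stromal-like median was not tested.

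The smallest adjusted p of a member was 0.218, for Rps3 in diplotene/dividing spermatocyte-like cells (edgeR). Rps3 was at 156, 186 and 153 CPM in control mice and 130, 138 and 147 CPM in nicotine mice there, a log2 difference of -0.26 ± 0.091 (SE). The groups did not overlap. Without control replicate 3 its adjusted p was 0.0412, and with doublets left in 0.0196.

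Rpl39 in elongating spermatid-like cells had the largest difference of any member tested. It was at 2.53, 1.78 and 2.56 CPM in control mice and 1.49, 1.25 and 0.901 CPM in nicotine mice, a log2 difference of -1.04 ± 0.236 (SE) with an adjusted p of 0.334 by edgeR. Rps4x, at 1.80 CPM on average, had a log2 difference of -0.93 ± 0.243 (SE) with an adjusted p of 0.556 by edgeR, and Rpl36a, at 0.78 CPM, of -0.98 ± 0.339 with an adjusted p of 0.842. The adjusted p of Rpl39 was 0.0196 without the filter on low counts, 0.0171 without control replicate 2 and 0.0244 with doublets left in. Markers of somatic cells moved with it. In these cells the 10 Leydig markers made up 0.0026 ± 0.00069% of UMIs in control and 0.0014 ± 0.00011% in nicotine mice, and the 10 stromal markers 0.00073 ± 0.00014% and 0.00052 ± 0.000057%, without overlap. The 12 Sertoli markers made up 0.0051 ± 0.00091% and 0.0034 ± 0.0011%, with overlap. All markers of the 3 lists had UMIs, and their part in the result was not tested. Within this class cluster 9, with 525 of its 15324 cells, had Rpl39 at 10.9 CPM against 1.27 to 1.62 CPM in the 4 larger clusters.

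Rpl10l was higher with nicotine, without overlap of the groups, in cluster 18, in pachytene spermatocyte-like cells and in low-UMI elongating spermatid-like cells. In cluster 18 it was at 109, 110.1 and 124 CPM in control mice and 138, 144 and 131 CPM in nicotine mice, and in pachytene spermatocyte-like cells at 43.2, 39.3 and 45.4 CPM against 50.4, 52.8 and 61.3 CPM. The log2 differences were 0.27 ± 0.104 and 0.36 ± 0.163 (SE), with adjusted p of 1.00 and 0.695 by edgeR. In low-UMI elongating spermatid-like cells it was at 45.1, 43.1 and 47.9 CPM in control mice and 63.3, 60.4 and 50.2 CPM in nicotine mice. The log2 difference there was 0.30 ± 0.138 (SE), with an adjusted p of 0.970 by edgeR. In diplotene/dividing spermatocyte-like and round spermatid-like cells the groups overlapped in CPM. As UMIs per cell, not scaled to the total, Rpl10l in round spermatid-like cells was at 2.26, 2.29 and 2.28 in control and 1.75, 2.21 and 1.63 in nicotine mice, lower without overlap, where the median UMI number per cell was 18161 to 19181 in control and 15692 to 17605 in nicotine mice. In pachytene spermatocyte-like cells the groups overlapped in Rpl10l UMIs per cell. Rpl39l had a log2 difference of 0.33 ± 0.181 in Leydig-like cells, with an adjusted p of 0.997 by edgeR (0.18 without nicotine replicate 1), and 0.16 ± 0.076 in the low-UMI pachytene and diplotene/dividing spermatocyte-like class, with an adjusted p of 0.632 by edgeR (0.09 without control replicate 2). In the latter class cluster 13, with Rpl39l at 1725 CPM, made up 62.3% of the cells in control and 73.4% in nicotine mice, the rest being cluster 11, with 1380.4 CPM, and the part of this mix in the difference was not tested.

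Other members among the 2 with the smallest unadjusted p in a class were as follows, none with an adjusted p under 0.5 by edgeR other than Rps19bp1 in diplotene/dividing spermatocyte-like cells (0.281, log2 difference -0.41 ± 0.159). Rps9 in Leydig-like cells differed by -0.24, Rpl19 and Rpl39 in Sertoli-like cells by -0.19 and -0.27, and Rpl11 in cluster 18 by -0.13. Rpl5 and Rps18 in low-UMI diplotene/dividing spermatocyte-like cells differed by -0.45 and 0.37, and Rps4x in low-UMI elongating spermatid-like cells by -0.67. In low-UMI leptotene/zygotene spermatocyte-like cells Rpl21 differed by -0.17 and Rps27a by 0.18, and Rpl6 in the low-UMI class with leptotene/zygotene and pachytene markers by 0.55. Rpl10 differed by -0.89 in the low-UMI pachytene and diplotene/dividing class, Rpl12 and Rpl26 by -0.14 and -0.11 in low-UMI round spermatid-like cells, and Rpl22l1 by 0.27 in pachytene spermatocyte-like cells. Rps4x and Rpl39 in round spermatid-like cells differed by -0.83 and -0.71, both at 0.265 to 1.21 CPM per mouse, and Rps4x in stromal-like cells by 0.39. Several of these rest on single mice: Rpl39 in round spermatid-like cells was -0.34 when nicotine replicate 2 was left out and -1.30 when nicotine replicate 3 was. Rpl39 in Sertoli-like cells was -0.095 when control replicate 3 was left out, Rpl26 -0.0037 when control replicate 1 was, and Rps4x in stromal-like cells 0.14 when nicotine replicate 1 was. The round spermatid-like class was led by cluster 7 in control mice (40.6% of its cells) and by cluster 6 in nicotine mice (39.2%).

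**Figure D5:**
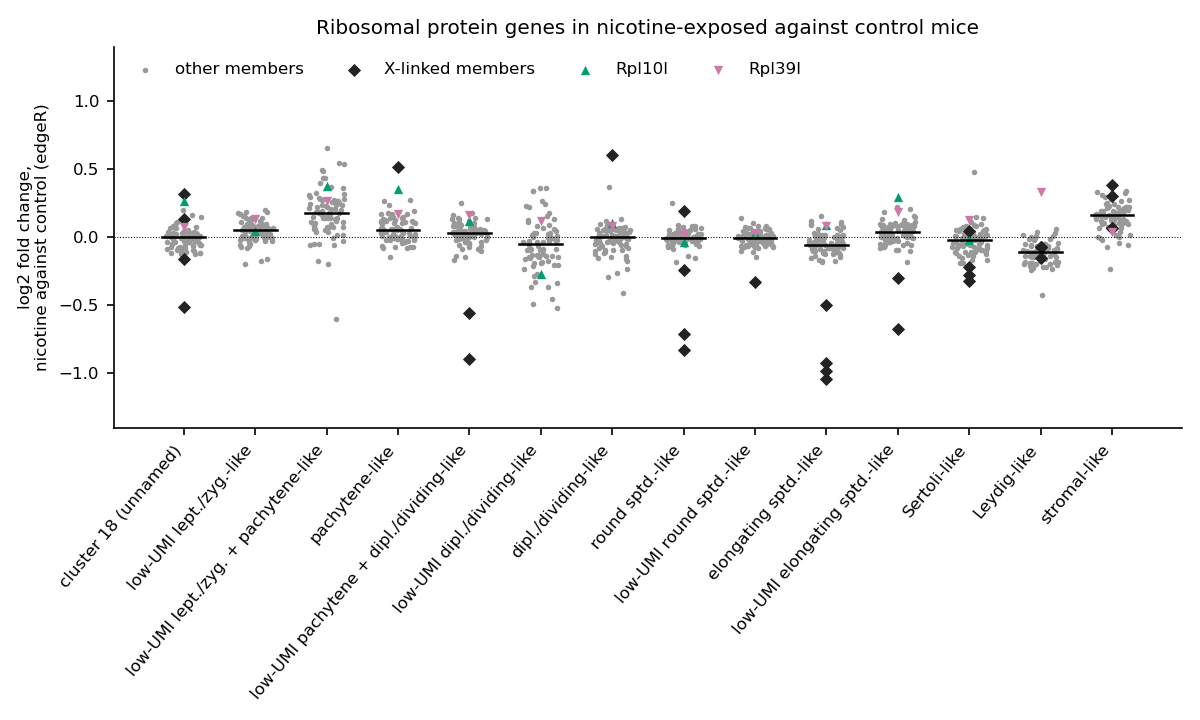
Log2 fold change, nicotine against control, of each member tested in each of the 14 classes; the black line is the median of the members, diamonds are the X-linked members and triangles Rpl10l and Rpl39l. The values run from -1.04 to 0.66, and the lowest is Rpl39 in elongating spermatid-like cells, where its mean level is 1.75 CPM.

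The balance within the paralog pairs overlapped between control and nicotine mice in most classes. Over 7 pairs and 14 classes, 11 of 98 shares did not overlap (11.2%), the same as the 11.2% of all gene tests, so the count is no result about the pairs. Among them, Rpl22l1 made up 39.4, 37.1 and 37.3% of its pair in elongating spermatid-like cells of control mice and 41.0, 39.6 and 40.8% in those of nicotine mice. Rpl7l1 made up 15.9, 16.5 and 17.7% in control and 18.1, 19.9 and 20.7% in nicotine pachytene spermatocyte-like cells, and the Rpl10l share in diplotene/dividing spermatocyte-like cells was 98.7 ± 0.132% in control and 98.2 ± 0.393% in nicotine mice. The X-linked share of member UMIs in elongating spermatid-like cells was 0.0241 ± 0.0064% in control and 0.0143 ± 0.0042% in nicotine mice, again without overlap. This share also did not overlap in the low-UMI pachytene and diplotene/dividing spermatocyte-like class (0.0857% in control, 0.0534% in nicotine mice). The same held in low-UMI diplotene/dividing spermatocyte-like cells (0.0892% and 0.0335%), and the groups overlapped in the other classes. A separation of 3 mice from 3 gives an exact permutation p of 0.1 at best, so these differences are given without a call.

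Nicotine also left the other translation lists without a call. Of the 8 elongation factors, 35 initiation factors, 40 biogenesis genes, 9 ribosome-associated regulators and 78 mitochondrial ribosomal proteins, 0 were called higher and 0 lower in any of the 14 classes by edgeR, with 6 to 7, 26 to 34, 10 to 39, 7 to 9 and 28 to 78 genes tested. In Leydig-like cells the median log2 fold change was -0.10 for elongation factors and -0.11 for the ribosome-associated regulators, beside -0.11 for the cytosolic members. It was -0.06 for the mitochondrial ribosomal proteins, -0.03 for the biogenesis genes and -0.01 for the initiation factors. In stromal-like cells the medians of these lists ran from 0.04 (ribosome-associated regulators) to 0.20 (mitochondrial ribosomal proteins). The direction of the elongation factors differed by class, and only the extremes are given here. In elongating spermatid-like cells 0 of 7 elongation factors were above 0, with a median of -0.05, and in cluster 18 1 of 7. In stromal-like cells 6 of 6 were above 0, and 6 of 7 in round spermatid-like and low-UMI leptotene/zygotene spermatocyte-like cells.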

How the data were processed

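The authors deposited raw UMI counts of each gene in each barcode, made with Cell Ranger 7.2.0 against GRCm38 (mm10), per the submitters' processing notes. They used 10x 3' v3 chemistry, per the labels' protocols. How reads matching several genes were counted and how barcodes were chosen are not given in the sources used here. Each library held 67853893 to 88329607 UMIs.

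Cells were kept from 500 UMIs and 250 genes upward if mitochondrial UMIs stayed below 20%, and the highest Scrublet scores were removed at 0.8% per 1000 cells (8.62% to 9.76% per library). Counts were scaled to 10000 per cell, and 2000 variable genes without the members, 30 principal components, 15 neighbours and Leiden resolution 1 (scanpy 1.11.5, Python 3.11.15) gave the clusters. A cluster was named where 3 or more markers exceeded the other cells 1.5-fold and were found in 10% of its cells. Classes and their names were rebuilt here and can differ from the study's.

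Summed counts were tested with edgeR 4.0.16 (TMM, filterByExpr, robust quasi-likelihood fit, R 4.3.3), nicotine against control, with Benjamini-Hochberg adjustment over all genes tested in a class and a threshold of 0.05. DESeq2 1.42.0 was an alternative, as were other scalings, filters and clusterings, each mouse left out in turn and a replicate block. The script was tested on simulated counts. Replicate numbers in the labels were not used to pair the samples. Deviations of same-numbered mice correlated at -0.23 to 0.44, with no class in which all 3 numbers passed 0.1. For the mice numbered 2 they ran from -0.05 in low-UMI leptotene/zygotene spermatocyte-like to 0.44 in round spermatid-like cells. Whether same-numbered mice shared a batch was not tested.

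The members and lists were chosen with earlier results of these data known. Named genes were the paralog pairs, X-linked, stalk and ubiquitin fusion genes, the 8 most and 5 least variable members, the 3 most abundant members, the 5 genes most alike, and the 2 members with the smallest p in each class. Some genes that this rule names are not reported here.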

Additional observations from a re-analysis of the deposited data

Results flagged for a closer look

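Cluster 37, with 50 cells, is not used in any comparison of the report because no marker list named it. Its leading genes included S100a4, Cd3g, Cd52, Trdc and Rgs1. The ribosomal protein genes held 17.1% of its UMIs (16.9 ± 1.48% over the 6 mice, from 14.5% to 18.5%), above the 8.91 ± 0.573% of Leydig-like cells, the highest of the named classes. Its X-linked members were at 1407 CPM (Rpl10), 1648 CPM (Rpl39), 2797 CPM (Rps4x) and 699 CPM (Rpl36a), beside 549 CPM of Rpl39l and 1532 CPM of the spermatid gene Prm2.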

How the results depend on the processing

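The statement that no member was called held in the 14 classes under DESeq2, library size alone, scaling without the members, the stricter cell filter and members among the variable genes (13 classes). With a replicate block it also held, with 0 members called. Leaving out each mouse in turn gave 0 to 1 in diplotene/dividing spermatocyte-like (Rps3) and 0 to 1 in elongating spermatid-like cells (Rpl39). Called members numbered 1 in diplotene/dividing spermatocyte-like cells with doublets left in, 1 in elongating spermatid-like cells without the filter on low counts and 1 with doublets left in, and 3 (Rpl21, Rps3 and Rpl14, lower) in low-UMI leptotene/zygotene spermatocyte-like cells at resolution 2. Resolution 2, doublets left in and members among the variable genes rebuild the classes, so a class then holds other cells, and classes that were not named again gave no value.

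At resolution 2, low-UMI leptotene/zygotene spermatocyte-like cells had a median log2 fold change of -0.18, a member share of 4.01% and a nicotine minus control difference of -0.436 percentage points, and low-UMI round spermatid-like cells a share of 3.88%. The Rpl39l share was 89.6% in Sertoli-like and 31.3% in Leydig-like cells, with a difference of 10.5 points in the latter, and the Rpl22l1 share 37.8% in elongating spermatid-like and 49.4% in Sertoli-like cells. Rps27a in low-UMI leptotene/zygotene spermatocyte-like cells turned to -0.16.

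With doublets left in, low-UMI round spermatid-like cells had a median log2 fold change of 0.19, a share of 2.92% and a difference of 0.425 points. The share was 8.01% in Leydig-like, 4.99% in low-UMI diplotene/dividing spermatocyte-like (difference 0.207 points), 2.93% in low-UMI leptotene/zygotene spermatocyte-like, 2.07% in pachytene spermatocyte-like and 6.57% in stromal-like cells. The Rpl39l share was 99.7% in elongating spermatid-like (difference 0.217 points), 89.3% in Sertoli-like, 40.6% in Leydig-like and 65.3% in stromal-like cells, and the Rpl10l share 2.93% in Leydig-like cells, with a difference of -0.21 points in diplotene/dividing spermatocyte-like cells. The Rpl36al share was 50.4% in stromal-like cells, with a difference of 0.559 points in elongating spermatid-like cells. The Rpl22l1 share was 74.1% in round spermatid-like, 48.6% in Sertoli-like and 39.5% in Leydig-like cells, with a difference of -0.555 points in diplotene/dividing spermatocyte-like cells. Log2 differences changed sign for Rpl12 (0.068) and Rpl26 (0.16) in low-UMI round, Rpl21 (0.034) in low-UMI leptotene/zygotene and Rpl5 (0.027) in low-UMI diplotene/dividing cells.

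With members among the variable genes, low-UMI round spermatid-like cells had a median of 0.14 and a share of 3.00%, with Rpl12 at 0.11 and Rpl26 at 0.17, low-UMI diplotene/dividing spermatocyte-like cells a share of 2.72%, the Rpl22l1 share in elongating spermatid-like cells was 36.8% and the Rpl10l difference in diplotene/dividing spermatocyte-like cells 0.027 points. Under the stricter cell filter Sertoli-like cells had a Rpl39l share of 89.4% and a Rpl22l1 share of 50.7%. The cause of these changes was not tested. Depth limits the X-linked members in germ cells, where Rpl39 had 197 UMIs in all elongating spermatid-like cells.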
